A study of Mus musculus with 2 samples.

Results

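DNA methylation was examined at the 8 alpha and beta globin genes of the mouse in the epiblast, the layer of the early embryo that forms the fetus. These are 3 alpha genes on chromosome 11 (Hba-x, Hba-a1 and Hba-a2) and 5 beta genes on chromosome 7 (Hbb-y, Hbb-bh1, Hbb-bh2, Hbb-bs and Hbb-bt). They were chosen by name, and all 8 were found among the 21782 protein-coding genes of the RefSeq table on chromosomes 1 to 19, X and Y. Each gene was measured within 500 bp on either side of both of its ends and over its body, and each cluster was read in 1 kb windows with 50 kb upstream of its first gene.

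The embryos were wild-type female (XX) C57Bl6/J at embryonic day 6.5, from natural matings and without culture. The epiblast was dissected by hand, and the sex was typed by PCR on tissue outside the embryo proper. The labels list 2 samples, and the whole-genome bisulfite counts came as 1 table with no column per sample. No value below therefore has a replicate error, and no p-value was computed.

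In bisulfite sequencing an unmethylated cytosine is read as thymine and a methylated one stays cytosine. The methylation level of a region is its methylated read counts over all its read counts at CpGs, with both strands added. A range in parentheses after a level is its 95% interval by the exact Clopper-Pearson method. It takes in counting error only, and it can be too narrow because 1 read may be counted at several neighboring CpGs. A region was called low when its upper bound was under 20%, intermediate when its interval lay within 20% to 60%, and high when its lower bound was over 60%; any other region was unresolved. Gene windows counted as measured with reads at 5 or more CpGs and at least 20 read counts. Coordinates are those of mm10 (GRCm38).

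The table held 133245671 read counts on the autosomes, or 6.54 per CpG, and 10.1% of autosomal CpGs had no read. The autosomal level was 66.3%. Chromosome Y, which a female embryo lacks, had 0.0445 reads per CpG. Among measured autosomal gene starts 61.5% were low, 5.19% intermediate, 16% high and 17.4% unresolved. Of the starts of 6 epiblast marker genes 4 were low, which is near that share, 1 was intermediate (Nanog) and 1 was unresolved (Pou5f1). Of 3 measured trophoblast markers 1 was low, 1 high and 1 unresolved, and of 3 visceral endoderm markers 1 was intermediate, 1 high and 1 unresolved. Highest in these lists, the start of Elf5, a trophoblast regulator, was at 83.8% (75.8% to 89.9%), and that of Afp, a product of visceral endoderm, was at 75% (63.7% to 84.2%). Methylation does not measure expression, so these values describe the promoters only.

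Hemoglobin carries oxygen in red blood cells and is built from alpha-like and beta-like chains. In each cluster the genes used in the embryo lie upstream of those used in the adult. Hba-x (zeta globin), Hbb-y and Hbb-bh1 serve the primitive red cells of the yolk sac, whereas Hba-a1, Hba-a2, Hbb-bs and Hbb-bt encode the adult chains. Distant enhancers drive both clusters in red cells. Most of those of alpha lie within introns of the neighboring gene Nprl3, and those of beta form the locus control region upstream of Hbb-y.

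The sequences below are the 250 bases before the start of a gene, from RefSeq (GRCm38.p6), printed 5′ to 3′ along the gene with each CpG in capitals. They are shown because the genes differ in how many CpGs a promoter offers for methylation. Hbq1b is a theta globin gene between Hba-a1 and Hba-a2.
Hba-x, chr11:32276350-32276599, plus strand: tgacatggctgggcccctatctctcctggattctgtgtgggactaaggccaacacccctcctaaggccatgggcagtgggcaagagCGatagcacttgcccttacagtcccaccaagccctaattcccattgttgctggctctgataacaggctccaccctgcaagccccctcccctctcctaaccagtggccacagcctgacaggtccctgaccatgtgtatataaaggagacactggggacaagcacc
Hba-a1, chr11:32283422-32283671, plus strand: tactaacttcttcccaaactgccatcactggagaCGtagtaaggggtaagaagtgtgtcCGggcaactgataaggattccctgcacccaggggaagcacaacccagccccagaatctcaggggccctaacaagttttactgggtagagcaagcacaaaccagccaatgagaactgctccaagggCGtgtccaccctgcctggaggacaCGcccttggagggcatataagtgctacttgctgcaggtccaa
Hbq1b, chr11:32286714-32286963, plus strand: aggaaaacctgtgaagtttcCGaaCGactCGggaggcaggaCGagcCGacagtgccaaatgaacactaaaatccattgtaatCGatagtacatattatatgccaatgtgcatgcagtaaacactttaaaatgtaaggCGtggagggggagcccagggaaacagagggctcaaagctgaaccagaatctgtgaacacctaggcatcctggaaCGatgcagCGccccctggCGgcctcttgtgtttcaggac
Hbb-y, chr7:103853208-103853457, minus strand: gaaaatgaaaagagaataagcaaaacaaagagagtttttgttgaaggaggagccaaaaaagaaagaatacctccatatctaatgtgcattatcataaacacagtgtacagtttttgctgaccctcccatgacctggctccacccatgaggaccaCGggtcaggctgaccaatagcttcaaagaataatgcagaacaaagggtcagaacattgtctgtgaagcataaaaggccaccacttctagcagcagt
Hbb-bs, chr7:103827929-103828178, minus strand: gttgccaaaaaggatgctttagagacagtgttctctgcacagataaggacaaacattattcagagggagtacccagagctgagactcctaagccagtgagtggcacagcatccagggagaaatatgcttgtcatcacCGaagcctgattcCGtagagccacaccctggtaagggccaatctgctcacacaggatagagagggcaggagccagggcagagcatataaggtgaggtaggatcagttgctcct
Hbb-bt, chr7:103813924-103814173, minus strand: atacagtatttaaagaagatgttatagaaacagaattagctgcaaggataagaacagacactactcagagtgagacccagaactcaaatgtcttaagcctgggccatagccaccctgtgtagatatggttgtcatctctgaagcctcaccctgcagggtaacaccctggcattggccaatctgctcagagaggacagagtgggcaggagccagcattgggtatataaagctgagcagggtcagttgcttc

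The globin promoters held few CpGs. Hba-a1 and Hba-a2 each had 4 in these 250 bases, Hbb-bh2 had 3, Hbb-bs had 2, Hba-x and Hbb-y had 1 each, and Hbb-bt had 0. Among 32851 promoters the median was 6, and 7.87% had 0. Hbq1b had 10. The single CpG of Hba-x, 164 bases before its start, was methylated in 5 of 8 read counts (62.5%). The single CpG of Hbb-y, 96 bases before its start, was methylated in 9 of 13 (69.2%). Both CpGs of Hbb-bs together were methylated in 9 of 10 read counts. In Hbb-bh2 the RefSeq promoter reaches into the gene as annotated, and its 3 CpGs were methylated in 30 of 36 read counts (83.3%). The 4 CpGs of Hba-a1 and the 4 of Hba-a2 had no read.

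Motifs of 5 letters known from globin promoters were looked up on both strands of these 250 bases in the 7 members with an entry. The TATAA of the TATA box stood 27 to 30 bases before the start of Hba-x, Hba-a1, Hba-a2, Hbb-bs and Hbb-bt (5 of 7 members, 22.8% of all promoters). CCAAT was found in the same direction as the gene in Hbb-bt and Hbb-bs (75 and 76 bases before the start), Hbb-y (83) and Hba-a1 and Hba-a2 (88 and 91), and 33.8% of promoters hold it. Hbb-bt also held it on the other strand. CACCC, the core of the site of the erythroid factor KLF1, was in 6 of 7 members, all but Hbb-bh2, and in 52.0% of promoters. AGATA or TGATA, forms of the site of GATA factors, were in 7 of 7 members and in 40% of promoters. Among the 35 matches in members 0 pairs of different motifs overlapped. A match is not a bound site.

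The start windows of the beta genes had few CpGs and were mostly methylated. They held 3 to 7 CpGs each, and together 111 of 152 read counts were methylated, or 73.0% (65.2% to 79.9%). Among all 8 members only Hbb-bh1 and Hbb-bh2 counted as measured at their starts. Hbb-bh2 was methylated in 44 of 58 read counts (75.9%, 62.8% to 86.1%; chr7:103840234-103841234) and was called high, as were 16% of 14396 measured autosomal protein-coding gene starts. Hbb-bh1, whose start was taken as its higher-coordinate end as in its neighbors, was methylated in 25 of 33 (75.8%, 57.7% to 88.9%; chr7:103842662-103843662) and was unresolved. Hbb-y was at 64.5% with 20 of 31 read counts methylated, over all 3 of its CpGs (chr7:103852707-103853707).

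Both levels lay near the middle of gene starts with that few CpGs. Of 2577 other autosomal gene starts within 5 CpGs of Hbb-bh2, 62.2% were at or below its level, and the median was 72.1%. For Hbb-bh1 the share was 62.5% of 2290, with a median of 72.0%.

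The adult beta genes were read thinly. In the start window of Hbb-bs (chr7:103827428-103828428) 16 of 17 read counts were methylated, or 94.1% (71.3% to 99.85%). In that of Hbb-bt (chr7:103813423-103814423) 6 of 13 were methylated, or 46.2% (19.2% to 74.9%). Hbb-bs minus Hbb-bt came to 48.0 points (Newcombe 95% interval 15.5 to 71.4), on so few read counts that linked CpGs of a single read can carry much of it. Over the bodies the pair was closer, at 18 of 24 read counts (75%) in Hbb-bs and 12 of 22 (54.5%) in Hbb-bt. Their intervals, 53.3% to 90.2% and 32.2% to 75.6%, overlapped.

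At the alpha genes the start windows held more CpGs in the adult genes, 17 each in Hba-a1 and Hba-a2, and 5 in Hba-x. The Hba-x start (chr11:32276100-32277100) was methylated in 21 of 35 read counts, or 60% (42.1% to 76.1%), over 4 CpGs. Those 4 CpGs were alike, from 58.3% to 62.5%. All 3 alpha starts together gave 24 of 43 read counts (55.8%, 39.9% to 70.9%), most of them from Hba-x. The plot of start windows against CpG number sets all 8 beside the autosomal genes.

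**Figure D1:**
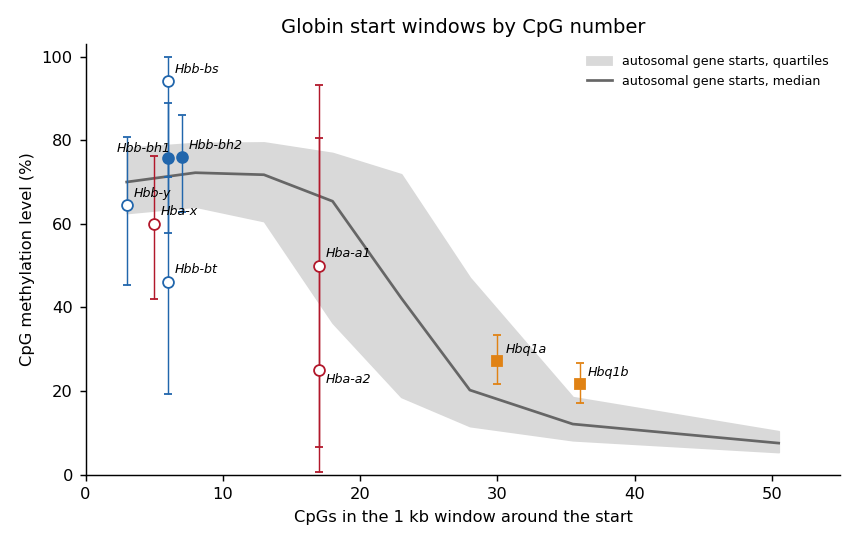
Methylation level (%) of the 1 kb window around each globin gene's start against its number of CpGs, with 95% intervals; red are alpha, blue are beta and orange squares are theta genes, and open points are under the depth minimum. The grey line and band are the median and quartiles of autosomal gene starts, which fall from 72.2% with 6 to 10 CpGs to 12.1% with 31 to 40, and the beta points other than Hbb-bs and Hbb-bt lie in the band.

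Hba-a1 and Hba-a2 were nearly without reads across their starts. In each, 16 of the 17 CpGs of the start window had none, and the only CpG with reads, 301 bp upstream in Hba-a1 and 304 bp upstream in Hba-a2, was methylated in 2 of 4 read counts in Hba-a1 and in 1 of 4 in Hba-a2. In both genes 18 CpGs in a row had no read over 803 bp (chr11:32283456-32284258 and chr11:32296273-32297075), starting 216 and 219 bp before the start. The RefSeq promoters of the 2 genes were identical over 297 of 297 bases compared. Those of the theta pair Hbq1b and Hbq1a were 95.3% identical, with a longest shared run of 105 bases, and those of Hbb-bs and Hbb-bt were 56.2% identical. Each pair was compared at a single offset, so inserted or lost bases can lower the share. Hbb-bs and Hbb-bt also had runs of CpGs without a read. These were 3 CpGs from 385 to 637 bp after the start in Hbb-bs, and 4 from 291 to 641 bp in Hbb-bt. Hbq1b had reads at 33 of 36 CpGs in its start window, and Hbq1a at 27 of 30. The part that shared sequence plays in the missing reads was not tested. The methylation of the adult alpha promoters is therefore not measured in this table.

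**Figure D2:**
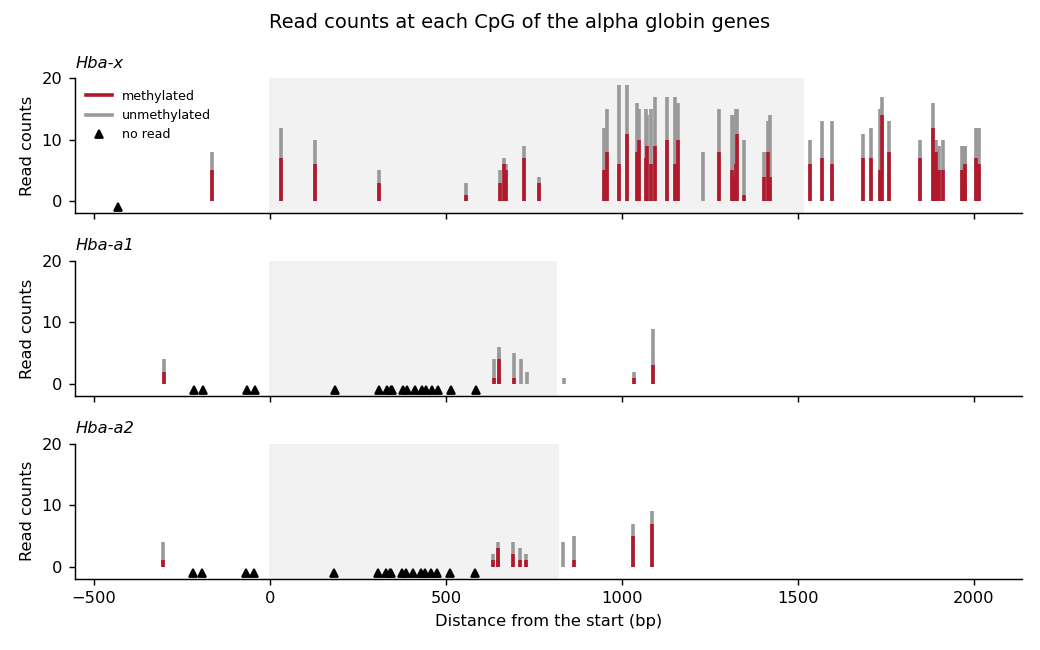
Read counts at each CpG (y axis) by distance from the start in bp (x axis) along Hba-x, Hba-a1 and Hba-a2, with methylated counts in red, unmethylated ones stacked in grey, gene bodies shaded and triangles at CpGs without a read. Hba-x was read at all 32 CpGs of its body, and Hba-a1 and Hba-a2 were each read at 6 of 20.

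Pooled over their genes, the bodies separated the families more clearly. The 3 alpha bodies held 20 to 32 CpGs each and were methylated in 213 of 437 read counts, or 48.7% (44.0% to 53.5%). The 5 beta bodies held 6 to 10 CpGs each and were methylated in 136 of 192, or 70.8% (63.9% to 77.2%). Alpha minus beta was -22.1 points (Newcombe 95% interval -29.7 to -13.8). Without Hba-x, which gave most of the alpha counts, it was -33.6 points (-47.8 to -17.2) on 43 alpha read counts. Those 43 came from 6 of 20 body CpGs in each of Hba-a1 and Hba-a2, all 635 to 731 bp after the start. That value therefore sets the downstream part of near-identical copies against whole beta bodies. Of the 7 bodies measured 1 was intermediate and 6 were unresolved. Of autosomal bodies, which were taken at any length, 4.92% were low, 28.4% intermediate, 53.3% high and 13.3% unresolved. Few read counts leave a call unresolved, as for Hbb-y at 73.5% on 49 read counts, so these shares do not compare levels. Of the 4 other ends measured 1 was intermediate and 3 were unresolved, whereas of 12720 autosomal ones 3.17% were low, 4.13% intermediate, 70.1% high and 22.6% unresolved. Alpha minus beta was -17.2 points (-33.3 to -1.52) at the starts and -21.9 points (-30.9 to -11.4) at the other ends. At the alpha starts only 6 of 39 CpGs had reads, and 35 of the 43 read counts came from Hba-x. The value at the starts is thus mostly Hba-x against the beta genes. Start and other-end windows reach 500 bp into the gene and share CpGs and reads with the bodies, so they are not separate measures. The interval at the starts took in 0 under 4 of 9 other settings, so the families were not firmly separated there. Among the 9, leaving out the deepest CpGs changed no value, and the mean of CpG fractions kept the interval of the main setting. Neither of these could therefore bring in 0.

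**Figure D3:**
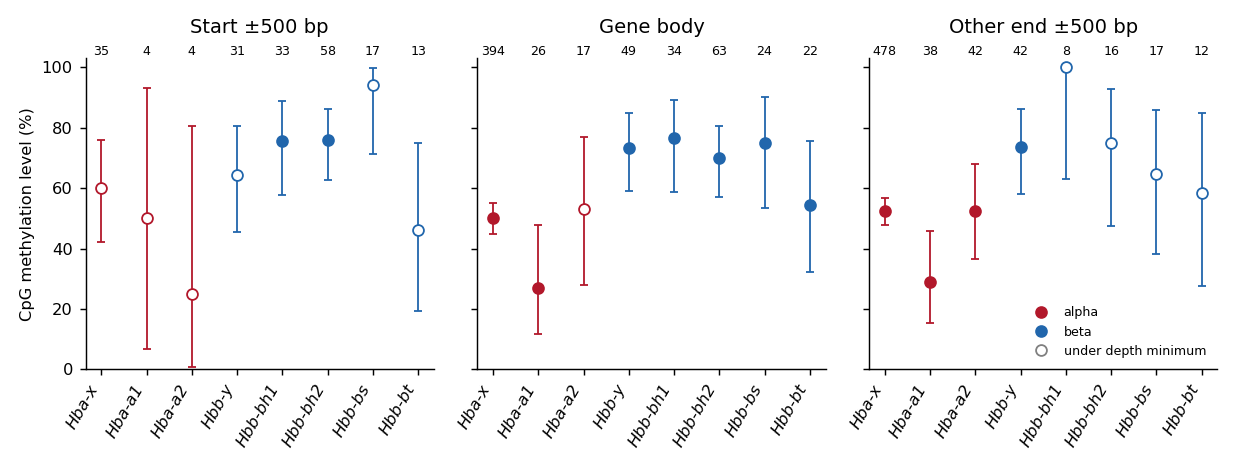
Methylation level (%) of each globin gene at its start, over its body and at its other end, with 95% intervals and the number of read counts above each point; red are alpha and blue are beta genes, and open points are under the depth minimum. Over the bodies the alpha genes lie between 26.9% and 52.9% and the beta genes between 54.5% and 76.5%. The genes at the inner edges, Hba-a2 (27.8% to 77.0%, under the depth minimum) and Hbb-bt (32.2% to 75.6%), have widely overlapping intervals.

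Hba-x gave the most precise value of the family. Its body (chr11:32276600-32278116) was methylated in 197 of 394 read counts, or 50% (45.0% to 55%), and was called intermediate, as were 4464 of 15704 measured autosomal bodies. Its other end (chr11:32277616-32278616), with 37 CpGs the densest window of any member, was at 52.3% (47.7% to 56.9%). The level was partial at nearly every CpG rather than split between full and empty ones. Of 30 body CpGs with 5 or more reads, 26 lay between 20% and 80%, 2 were at or below 20% and 2 were at or above 80%, with a median of 53.3%. The counts do not join CpGs of a read, so partial methylation of every cell and a mixture of cells or alleles cannot be told apart.

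Set beside bodies of like length (within a factor of 2) and CpG number (within 5), Hba-x was on the low side, with 18.7% of 155 at or below it and a median of 73.8%. Its other end was on the high side of windows with like CpG number, with 74.2% of 236 gene ends at or below it and a median of 22.7%. The level of Hba-x lay between these medians.

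The readable parts of Hba-a1 and Hba-a2 lay at their downstream ends. In the body of Hba-a1 (chr11:32283672-32284486) 7 of 26 read counts were methylated, or 26.9% (11.6% to 47.8%). In the body of Hba-a2 (chr11:32296492-32297310) 9 of 17 were methylated, or 52.9% (27.8% to 77.0%). At the other end the values were 11 of 38 (28.9%, 15.4% to 45.9%) in Hba-a1 and 22 of 42 (52.4%, 36.4% to 68.0%) in Hba-a2. Hba-a1 minus Hba-a2 was -26.0 points (-50.7 to 3.14) over the bodies and -23.4 points (-42.0 to -1.87) at the other ends. These genes are near-identical copies, and a read of one that was placed at the other would not be noticed. Only 1.24% of 161 bodies like that of Hba-a1 were at or below its level, on reads at 6 of its 20 CpGs.

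Among the beta bodies Hbb-y (36 of 49 read counts, 73.5%, 58.9% to 85.1%), Hbb-bh1 (26 of 34, 76.5%, 58.8% to 89.3%) and Hbb-bh2 (44 of 63, 69.8%, 57.0% to 80.8%) were close together. Embryonic and adult beta genes were not separated, since the intervals of all 5 overlapped. Hbb-y, Hbb-bh1, Hbb-bh2 and Hbb-bs stood at 45.8% to 69.2% of like bodies, and Hbb-bt at 6.07% of 676. The Hbb-bt value rests on 22 read counts at 5 of its 9 CpGs. Its interval (32.2% to 75.6%) took in the median of those bodies, 72.1%. The first genes of the clusters, both used in the yolk sac, differed: Hba-x minus Hbb-y was -23.5 points over the bodies (-34.9 to -8.89).

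Taken whole, the alpha cluster from Hba-x to Hba-a2 (chr11:32276600-32297310) was at 55.7% (53.4% to 57.9%) over 1954 read counts, whereas the rest of chromosome 11 was at 63.1%. The beta cluster from Hbb-y to Hbb-bt (chr7:103812524-103853207) was at 69.8% (66.8% to 72.7%) over 950 read counts, whereas the rest of chromosome 7 was at 64.3%. Alpha minus beta was -14.1 points (-17.7 to -10.4). The alpha cluster had 12.4 CpGs per kb and the beta cluster 4.94. Of autosomal stretches of the same length, 9.82% of 113374 were at or below the alpha cluster and 39.6% of 58515 were at or below the beta cluster. Among stretches whose number of CpGs was within a factor of 1.25, the shares were 17.9% for alpha and 43.8% for beta. Outside the globin genes, theta included, and 500 bp around them, the alpha cluster was at 70.8% (67.6% to 73.8%) and the beta cluster at 68.9% (65.3% to 72.3%). There alpha minus beta was 1.85 points (-2.70 to 6.43), so the difference between the clusters was not found between their genes. The genes of the alpha cluster include the theta gene Hbq1b, whose body was methylated in 86 of 271 read counts (31.7%). A cluster level without theta alone is not given here. With 1 CpG kept per 100 bp over the whole clusters alpha minus beta was -7.13 points (-12.0 to -2.16).

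The lowest 1 kb windows from Hba-x on were at Hbq1b (23.5%), Hba-a1 (25.9%) and Hbq1a (26.7%). Theta globin is a relative of alpha whose role is not well known. The start of Hbq1b (chr11:32286464-32287464) was at 21.7% (17.1% to 26.8%) with 36 CpGs, and that of Hbq1a (chr11:32299569-32300569), beyond Hba-a2, was at 27.2% (21.6% to 33.4%) with 30 CpGs. Both were above the median of gene starts with like CpG number, which was 11.7% for Hbq1b and 16.6% for Hbq1a. Of those starts 83.4% were at or below Hbq1b and 70.6% at or below Hbq1a.

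Upstream of the alpha genes the level changed in steps. The body of Nprl3, a regulator of growth signaling that houses the alpha enhancers, was at 83.9% (82.4% to 85.2%; chr11:32232963-32266707) without its last 1 kb at each end. Its start window, with 59 CpGs, was at 7.61% (5.68% to 9.93%). Between that window and Hba-x (chr11:32268208-32276099) the level was 61.2% (56.3% to 65.9%), which was lower than in the Nprl3 body by a difference of -22.7 points (-27.7 to -17.9). Between Hbq1b and Hba-a2 it was 72.8% (69.2% to 76.2%). CpGs at or above 80% made up 68.5% of those with 5 or more reads in the Nprl3 body, 26.3% in the gap before Hba-x and 45.9% between Hbq1b and Hba-a2. These stretches were picked after the windows had been seen.

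In 1 kb windows, which counted as measured with reads at 3 CpGs and 20 read counts, the same course was seen. Of 45 measured windows upstream of Hba-x 38 were high, 3 low and 4 unresolved, and their median was 85.1%. Of 20 measured windows from Hba-x to 5 kb beyond Hba-a2 3 were high, 2 were intermediate, 0 low and 15 unresolved, and their median was 61.4%. Over 1583081 measured autosomal windows 57.9% were high, 2.02% intermediate, 1.52% low and 38.6% unresolved, and the median was 76.9%. The 3 lowest were all upstream, at Mpg, a DNA repair gene (10.3%), and at the start of Nprl3 (11.5% and 12.8%). The 3 highest, from 94.6% to 96.8%, lay within Nprl3. The 2 intermediate windows covered the downstream part of Hba-x (52.4%, 47.8% to 57.0%) and the start of Hbq1a (26.7%, 21.2% to 32.7%).

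**Figure D4:**
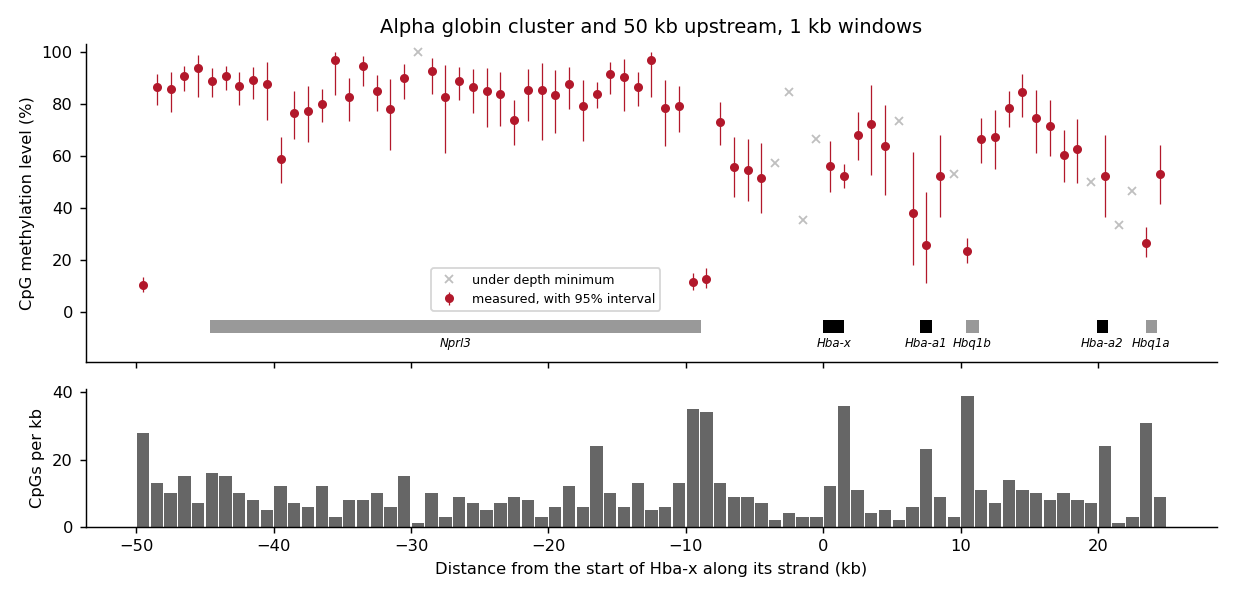
Methylation level (%) in 1 kb windows by distance from the start of Hba-x in kb, with 95% intervals, and below it the number of CpGs per window; crosses are windows under the depth minimum, black boxes are alpha genes and grey boxes are Nprl3 and the theta genes. The median is 85.1% upstream and 61.4% in the cluster, and the windows at the start of Nprl3 (11.5% and 12.8%) and at Hbq1b (23.5%) and Hbq1a (26.7%) stand below their neighbors.

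The known enhancers of the alpha cluster are named by their distance in kb upstream of zeta globin, and 2 kb windows were centered on those distances. HS-31 was at 86.4% (79.3% to 91.7%), HS-26, the strongest enhancer of the cluster in red cells, at 87.9% (82.3% to 92.3%), HS-21 at 85.4% (75.8% to 92.2%) and HS-12 at 85.5% (75.6% to 92.5%). These 4 together were methylated in 409 of 472 read counts, or 86.7% (83.2% to 89.6%), close to the 83.9% of the Nprl3 body around them. The window of HS-8 was at 28.9% (24.8% to 33.3%), but it takes in part of the Nprl3 promoter. With 500 bp on either side it was at 64.9% (55.2% to 73.7%). Positions from names are approximate, and an element shorter than the window could differ from it.

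Upstream of the beta genes no low window was found. Of 50 windows 16 were measured. Of the other 34, 18 had fewer than 3 CpGs with a read, and 16 had enough CpGs but under 20 read counts. Of the 16 measured windows 13 were unresolved, 2 high and 1 intermediate, and their median was 68.2%. From Hbb-y to 5 kb beyond Hbb-bt 14 of 45 windows were measured, of which 4 were high and 10 unresolved, and their median was 73.6%. The lowest, at 38.9% (31.3% to 46.9%; chr7:103882208-103883207), held 27 CpGs and overlapped the olfactory receptor gene Olfr66 and the pseudogene Dnajc19-ps, 30 kb upstream. Its neighbor farther upstream (47.6%, 21 read counts) and a window 22 kb upstream (54.2%, 24 read counts) followed. The highest was at 90.9% between Hbb-bs and Hbb-bt, followed by 87.5% at 26 kb upstream and 80% at Olfr64.

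The stretch from 5 to 30 kb upstream of Hbb-y, where the locus control region lies, was at 61.1% (57.2% to 64.9%) over 648 read counts. Without the window at Olfr66 and Dnajc19-ps it was at 68.5% (64.2% to 72.6%). That window was the lowest measured beta window and leaving it out was not planned beforehand, so the level could only rise. The next 20 kb farther upstream were at 73.0% (67.0% to 78.5%), and the 5 kb before Hbb-y at 68.0% (57.8% to 77.1%). Between the genes the levels were 62.3% (52.7% to 71.2%) from Hbb-y to Hbb-bh1, 68.1% (60.3% to 75.3%) from Hbb-bh2 to Hbb-bs and 71.0% (66.4% to 75.3%) from Hbb-bs to Hbb-bt. The intervals of these 3 stretches overlapped. The stretch from 5 to 30 kb upstream lay below the next 20 kb and below Hbb-bs to Hbb-bt, but without the window at Olfr66 and Dnajc19-ps its interval overlapped both.

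**Figure D5:**
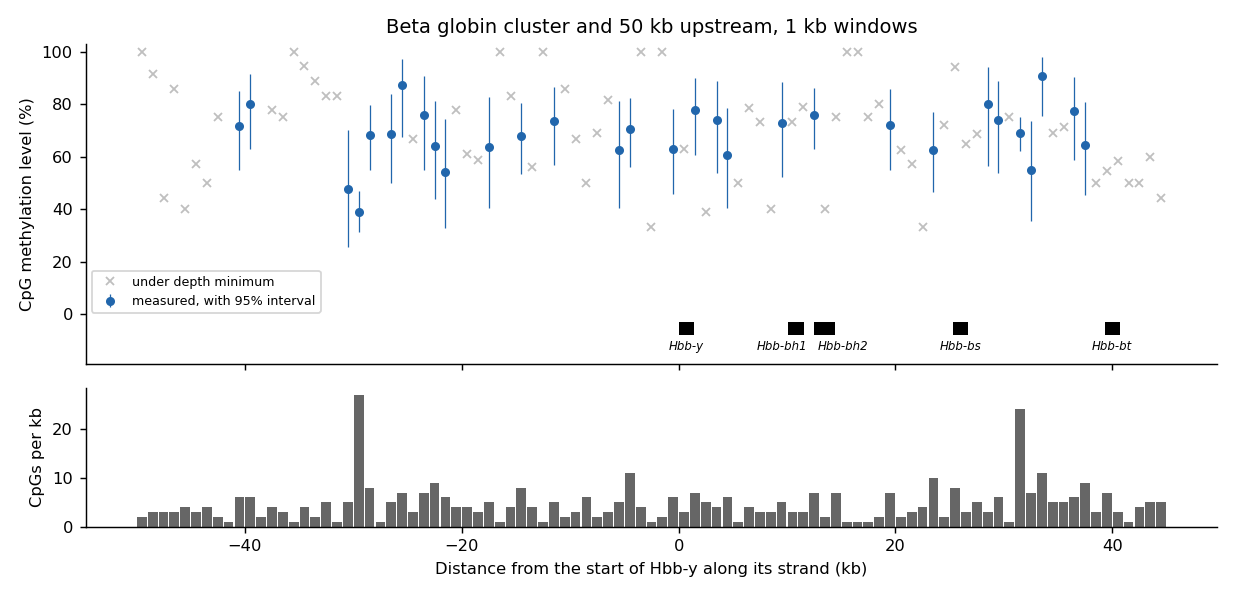
Methylation level (%) in 1 kb windows by distance from the start of Hbb-y in kb, with 95% intervals, and below it the number of CpGs per window; crosses are windows under the depth minimum and black boxes are beta genes. The median is 68.2% upstream and 73.6% from Hbb-y on, and the lowest measured window, which overlaps Olfr66 and Dnajc19-ps, is at 38.9%.

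Single CpGs were also counted over the whole clusters, of which the alpha cluster includes the theta gene Hbq1b. In the alpha cluster 25 of 175 CpGs with 5 or more reads were at or below 20%, 113 lay between and 37 were at or above 80%. In the beta cluster these numbers were 1, 52 and 34 of 87. Of such CpGs, 2 of 30 in the Hba-x body and 2 of 3 in the Hba-a1 body were at or below 20%. The Hba-a2 body had 0 CpGs with 5 or more reads. The share over all autosomal CpGs is not given here, so these counts are not read as a trait of the globin genes.

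Genes that act with the globins in red cells were compared at their starts. Of 13 erythroid regulators 11 had a start in the RefSeq promoter table, and 6 of them were low, 2 high and 3 unresolved, beside 61.5% low, 5.19% intermediate, 16% high and 17.4% unresolved among autosomal gene starts. The lowest were the GATA1 cofactor gene Zfpm1 (2.13%) and Myb (4%), and the highest were Runx1 (82.9% with 18 CpGs) and the X-linked Gata1 (74.6% with 9 CpGs). Klf1, the activator of adult beta globin, named here after its value was seen, was at 59.5% (42.1% to 75.2%) with 7 CpGs. Of 6 heme synthesis genes with a start 4 were low and 2 unresolved. Cpox (3.74%) and Alad (4.69%) were lowest, and Alas2, the X-linked erythroid form of the first enzyme (46.9%), and Uros (25%) were highest. Of 9 measured red cell protein genes 3 were low, 3 were high and 3 unresolved, from the spectrin gene Sptb (5.92%) and the transferrin receptor gene Tfrc (6.17%) up to Epb42 (70.8%) and Hemgn (86.7%). The low members had 35 or more CpGs in the window and the high ones at most 18.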

How the data were processed

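Whole-genome bisulfite sequencing gave the methylated and unmethylated read count of each CpG on each strand, as deposited by the authors in 1 table without a header for the epiblast samples. Per the submitters' processing notes, the build was mm10 and the tools named were cutadapt 1.3, Bismark 0.12.5 and Bowtie2 2.1.0. The sources used here do not say how the 2 samples were combined, what was filtered, or whether duplicates were removed. Counts on sequences other than chromosomes 1 to 19, X and Y (0.134% of all) were left out.

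Strands were added per CpG, and levels, Clopper-Pearson intervals and Newcombe intervals of differences were computed with Python 3.11.15, scipy 1.17.1 and statsmodels 0.14.6. The calling steps were tested on simulated data. Gene ends came from the RefSeq table and the strand from the RefSeq promoter table. Hbb-bh1 has no promoter entry, so its higher-coordinate end was taken as its start. Autosomal protein-coding genes and 1 kb windows, measured in the same way, served as background.

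All 8 genes were named, with the 3 lowest and 3 highest measured windows of each cluster, the 2 lowest and 2 highest genes of each list and every other globin gene. The members and lists were chosen with earlier results of these data known.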

Additional observations from a re-analysis of the deposited data

How the results depend on the processing

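Of the recomputed summaries 84 stayed within their counting interval or, for counts, within 1.5 times, 25 moved further and 1 reversed, and of values of single genes 117 stayed and 3 moved. Leaving out the deepest CpGs changed none of the values, so what it adds to those that stayed is no test of them. The mean of CpG fractions kept the intervals of the main setting, so neither setting could make an interval take in 0. The reversal was alpha minus beta over the clusters (-14.1 points), which was 1.85 (-2.70 to 6.43) outside the genes and -7.13 with 1 CpG per 100 bp. Alpha minus beta ranged from -21.7 to -11.5 points at the starts, where the interval took in 0 under 4 of 9 alternatives (upper bounds of 5.24 with 5 reads per CpG, 5.28 on the plus strand, 1.7 on the minus strand and 3.56 with 1 CpG per 100 bp), and from -33.6 (without Hba-x) to -18.3 over the bodies, and the Hba-x body from 46.6% to 53.2%. Keeping 1 CpG per 100 bp moved the 8 gene bodies together to 59.9% (55.5%), the alpha cluster to 60.1% (55.7%), the 5 alpha control windows together to 75.9% (58.2%) and the beta locus control region to 69.4% (61.1%). Those alpha control windows came to 48.9% on the plus strand, 67.0% on the minus strand and 79.1% with 500 bp on either side, so they lay above the beta region under some settings and below it under others. The start windows together came to 58.9% with 1000 bp on either side (69.2%), and the alpha cluster outside its genes to 70.8%, an alternative added after seeing the data, as was leaving out Hba-x. The 3 low alpha windows became 1 on the minus strand, 1 when shifted by 500 bp and 1 at 2 kb. The 2 intermediate alpha windows became 1 on either strand alone, 4 when shifted, 4 at 2 kb and 10 with limits of 30% and 70%. The 41 high alpha windows became 23 on the plus strand and 21 at 2 kb, where there are fewer windows. The 6 high beta windows became 2 on the plus strand, 3 on the minus strand, 11 at 2 kb and 1 with limits of 30% and 70%. Single strands carry fewer reads. The cause of the other moves was not tested. Among the 5 alpha control windows HS-8, which takes in part of the Nprl3 promoter, held 457 read counts at 28.9%. The other 4 together held 472 at 86.7%. With 500 bp on either side HS-8 was at 64.9%. The start windows were limited most, with 2 of 8 measured. Those of Hba-a1, Hba-a2, Hbb-bs and Hbb-bt were under 20 read counts. Those of Hba-x and Hbb-y had 35 and 31 read counts but reads at only 4 and 3 CpGs. No paired analysis was possible because the table holds no column per sample, and leaving out a replicate was not run for the same reason.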

Other observations

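Other members of the globin family lie outside both clusters. The start of Mb, which encodes the muscle oxygen store myoglobin, was at 87.1% (82.4% to 90.9%) with 23 CpGs, and 97.0% of 1449 autosomal gene starts within 5 CpGs of it were at or below that level, with a median of 43.8%. For Ngb (neuroglobin) and Cygb (cytoglobin) no strand was taken, so both ends are given. Ngb was at 21.2% (17.6% to 25.2%) at its higher-coordinate end and 72.4% (62.5% to 81.0%) at its lower one, and Cygb at 17.3% (14.1% to 20.8%) and 78.3% (67.9% to 86.6%).

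The globin pseudogenes away from the clusters were methylated throughout. The body of Hba-ps3 on chromosome 15 was at 86.7% (77.5% to 93.2%), and that of Hba-ps4 on chromosome 17 at 78.6% (69.8% to 85.8%). The beta pseudogene Hbb-bh3, between Hbb-bh2 and Hbb-bs, was methylated in 11 of 15 read counts. Hbb-bh0 was not analysed here. Within the alpha cluster, the body of Hbq1b was at 31.7% (26.2% to 37.6%) and that of Hbq1a at 21% (15.6% to 27.3%). Of 5 measured genes that flank the clusters or lie between their members, the starts of Mpg (6.99%) and Nprl3 (7.61%) were lowest and those of Olfr66 (77.5%) and Hbq1a (27.2%) highest.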
